A study of Danio rerio with 28 samples.

Results

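The genes described here form a module of 33 genes, out of 1017 in the table. Their mean level over all sorted wild-type zebrafish cells was higher at 24 hours post fertilization (hpf) than at both earlier stages. Cells with and without a transcript of the germ cell marker nanos3 were averaged together. A gene was taken when its mean over all wild-type cells at 24 hpf reached 0.3 transcripts per cell and that mean plus 0.1 was at least 2.5 times the mean plus 0.1 at 3.5 hpf and at 8 hpf. Of the 121 genes past both limits, 9 were set aside by name and 79 by the start of their name, 70 of them because it began with rpl or rps. The other starts left out were germ, mt-, atp5, cox, nduf, uqcr, eif, eef, hnrnp and srsf. The names listed to be left out were fabp3, h1f0, TUBA1A, elavl3, tubb5, ttna, ttnb, actc1b, krt4, krt5, icn, icn2, col11a1a, hspe1, hmgn3 and faua. The members were chosen by the wild-type stage means, so the wild-type gain is a description and no test of it is given. The values are transcripts per cell as deposited, less the 0.1 that had been added to each.

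Primordial germ cells of zebrafish inherit germ plasm, a store of maternal RNA and protein laid down in the egg, and later switch on transcription from their own genome while they migrate to the gonad. Transcripts of nanos3 and vasa mark these cells because they are kept there and cleared from the soma. Tdrd6a is a Tudor-domain protein of germ plasm, and tdrd6a itself was not analysed here.

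Cells were sorted singly from embryos of maternal-zygotic tdrd6a-/- mothers and of wild-type mothers. The kop::egfp-f-nos1-3′UTR transgene, which labels germ cells, is named in the design text without a statement that both genotypes carry it. RNA of each cell was read by CEL-seq, which tags the 3′ end of each RNA with a barcode of its cell. Mutants at 3.5, 8 and 24 hpf gave 5, 4 and 3 plates, and wild types gave 5, 4 and 5 plates, with 1033 cells on 26 plates in all. At 24 hpf there were 156 mutant cells and 196 wild-type cells. 4 sets of wells lie outside these groups: 48 cells of 8 hpf mutant plate 1 marked as heterozygous, 40 cells of 24 hpf and 5 of 8 hpf on 1 mixed plate, and 76 wild-type cells of 2 weeks. The mixed plate carries the genotype label wildtype, but its description calls the 8 hpf wells heterozygous, so their genotype is uncertain. The labels do not name clutches or numbers of embryos, so p-values measure the spread between plates, which may be technical.

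Plates held between 1027 and 32018 transcripts in all, and cells between 156 and 855 with a median of 424. 3 plates held fewer than 10 cells. All plates are labelled germ cells, but the summed level of 9 germ markers per plate at 24 hpf was 0.593 to 4.82 transcripts per cell in mutants and 0.927 to 8.40 in wild types. At 24 hpf the share of cells with a nanos3 transcript ran from 11.1% to 66.7% on mutant plates and from 17.1% to 80.7% on wild-type plates. On mutant plates it was 4.05% to 16.4% at 3.5 hpf and 29.8% to 55.6% at 8 hpf. Wild-type plates had 7.14% to 25% and 14.3% to 83.3% at those stages. The share thus differs between stages and plates, and its part in the stage differences was not tested. Plate 1 of the 8 hpf mutants stands apart: 23 of the 33 members were above all 7 other 8 hpf plates there, as were 29.6% of all genes. There 21 members lay within the range of the wild-type 24 hpf plates, as did 60.4% of all genes. sst2 is among the 21 though it was at 0, because the lower end of its range is 0. On mutant plates 2, 3 and 4, 4, 6 and 4 members were above the 6 other plates besides plate 1, where 10% to 15.5% of all genes were. Its 47 mutant cells averaged 5.36 globin, 4.51 muscle and 8.32 epidermal marker transcripts, against at most 0.0556, 0.5 and 1.58 on the other 3 mutant plates of 8 hpf. The heterozygous wells of that plate showed the same count, 23 members above all 7 other plates, with 30.3% of all genes. The main counts of members in the mutant, 24 against 8 hpf, are therefore given with and without it. Other values of that comparison include it unless stated.

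By function the members fall into several groups, whose make-up depends in part on the names that the rule left out. 5 belong to the ribosome and translation: si:dkey-151g10.6, which has rpl41 among its synonyms in RefSeq, RPL37A and RPS17L, whose names are those of ribosomal proteins in capitals, gnb2l1 (rack1), which sits on the small subunit, and btf3, which meets nascent chains at the ribosome. The module is therefore not free of ribosomal genes. 7 act on chromatin, namely the prothymosins ptmab and ptmaa, the high-mobility-group genes hmgb2b, hmgb1b and hmgn2, the replication-independent histone gene h3f3b.1 and the linker histone gene histh1l. 3 encode subunits of the proteasome core (psmb6, psmb1 and psma1), 2 prolyl isomerases that help proteins fold (fkbp1aa and ppiab) and 1 a core protein of spliceosomal particles (snrpf). Signalling is represented by calm2a, a calmodulin gene, mob4, a gene of the MOB family, and mdka, the secreted growth factor midkine. Of the cytoskeletal genes, ENSDARG00000077777 is tmsb4x, an actin-monomer binder, and tuba1c encodes an alpha-tubulin. The others are the keratin genes cyt1l and zgc:92533 (krt91), the hatching enzyme gene he1a, the cathepsin L genes ctslb, with the synonym hgg1, and zgc:174153, the tetraspanin gene cd63, the somatostatin-family gene sst2, and si:ch1073-429i10.3 and BX571880.1, for which no role is given here.

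The 33 members together made up 2.02 ± 0.162% of transcripts per plate in mutants at 3.5 hpf (SD, n = 5), 3.48 ± 2.39% at 8 hpf (n = 4) and 8.37 ± 1.58% at 24 hpf (n = 3). In wild types their share was 1.72 ± 0.0326% at 3.5 hpf (n = 5), 2.22 ± 0.594% at 8 hpf (n = 4) and 7.98 ± 0.73% at 24 hpf (n = 5). The wild-type series follows from how members were chosen. The mutant plates did not enter the rule, and their 24 hpf shares of 10.1%, 8.12% and 6.93% were all above their 8 hpf shares of 6.77%, 2.51%, 3.46% and 1.17%. The highest 8 hpf share is that of plate 1.

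**Figure D1:**
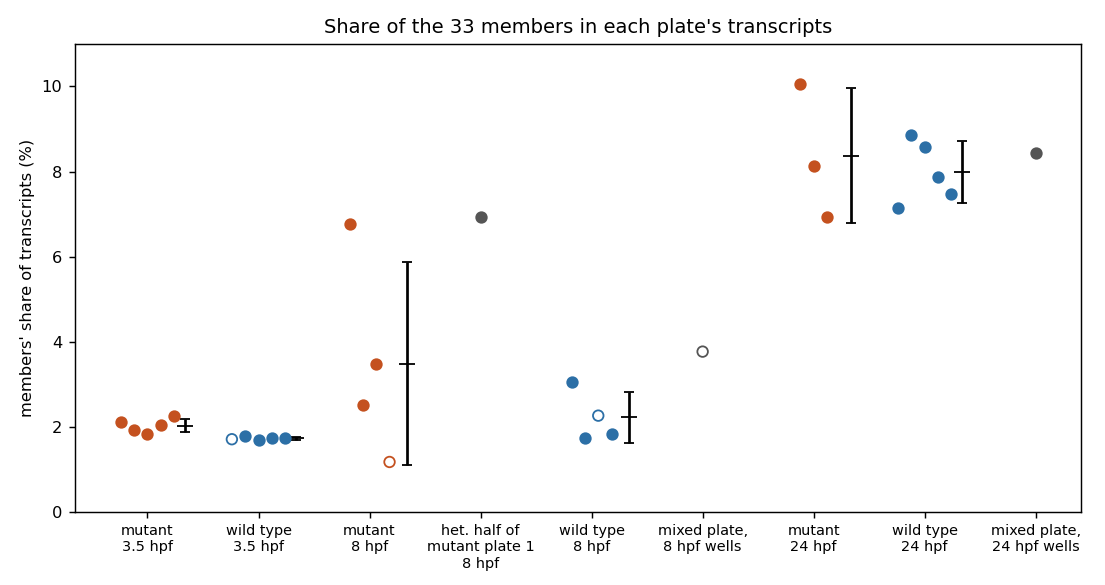
Share of all transcripts held by the 33 members (vertical axis, %) in each plate (points) of the 6 groups and in the heterozygous wells of plate 1 and the mixed-plate wells; open points are plates or wells of fewer than 10 cells, bars show the mean and SD of a group. The 24 hpf plates lie between 6.93% and 10.1%, and of the 8 hpf points the mutant and heterozygous wells of plate 1, at 6.77% and 6.94%, are the highest.

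The wild-type 24 hpf wells of the mixed plate, which the rule did not use, show the members in other cells. There, 29 of 33 members were within the range of the 5 wild-type 24 hpf plates, as were 72.4% of all genes, and 30 were above the 5 cells of 8 hpf on the same plate, as were 59.3% of all genes. sst2 and BX571880.1 were at 0 in all 40 cells and count as within, because the lower end of their range is 0. The ranges of he1a, ctslb and zgc:174153 start at 0 too. The joint share of the 33 members was 8.44% of transcripts at 24 hpf, against 3.76% in the 8 hpf wells.

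Not all members rest on many cells. sst2 had 90 of its 91 wild-type transcripts of 24 hpf in 1 cell of plate 5 (barcode 36), and the same cell held all 67 transcripts of BX571880.1. A cell of plate 3 (barcode 73) held 76 of 84 transcripts of zgc:174153, 60 of 78 of ctslb and 48 of 69 of he1a. Neither cell had a nanos3 or a vasa transcript. The plate 3 cell carried 855 transcripts, the most of any cell in the table, and a doublet was neither called nor tested.

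Left without its own highest cell, each of 8 members falls below the rule: these 5, and histh1l, cd63 and mdka, which lie near its limits. Without the 2 cells named above, 27 genes meet the rule, all of them members. Detection of the other members ranged widely. si:dkey-151g10.6 was seen in 98.5% of the 196 cells and RPL37A in 82.1%, whereas cyt1l was seen in 18.9% and zgc:92533 in 17.3%. By the smaller of the 2 wild-type folds, nearest the limit were snrpf at 2.58, histh1l at 2.60 and RPS17L at 2.68 among the members, and psmb2 and ppib, both at 2.46, and si:ch1073-325m22.2 at 2.48 outside.

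**Figure D2:**
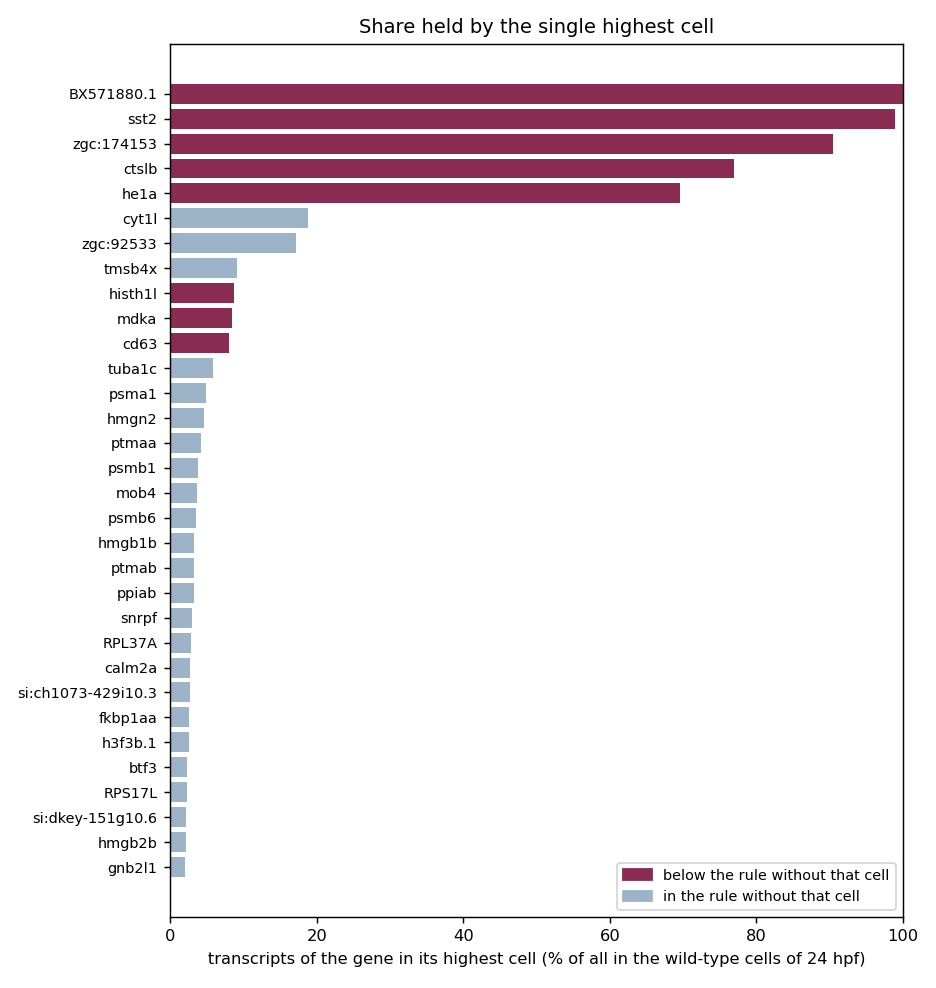
For each of 32 members (vertical axis), the share of its wild-type 24 hpf transcripts found in the single highest of 196 cells (horizontal axis, %); dark bars are members that fall below the rule when that cell is left out. BX571880.1 and sst2, at 100% and 98.9%, and the 3 hatching gland and cathepsin genes, at 69.6% to 90.5%, stand far from the other members, the next being cyt1l at 18.9%.

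In the mutant, most members were higher at 24 hpf than at 8 hpf. Of the 31 members that passed the filter on low values (sst2 and BX571880.1 did not), 19 were higher and none was lower by limma with Benjamini-Hochberg adjustment over all 910 genes tested, where 15.9% were higher. 29 of the 31 differences were positive. Limma voom called 7 members higher and none lower, where 7.47% of all genes were higher and 15.2% lower. The median log2 difference, 24 minus 8 hpf, was 1.005 for the members and 0.12 for all genes. The share of all genes called is lower than the share of members, but the members are genes chosen for the same stage difference in the other genotype. Without 8 hpf mutant plate 1, 23 of 30 members were higher and 22.3% of 895 genes, and all 19 were among the 23. The reported fit did not scale plates to equal totals. Scaled so, 10 members were called higher with all plates, where 83 of 910 genes were. Median transcripts per cell were 634, 541 and 525.5 on mutant plates of 24 hpf, against 533, 423, 416 and 513.5 at 8 hpf.

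**Figure D3:**
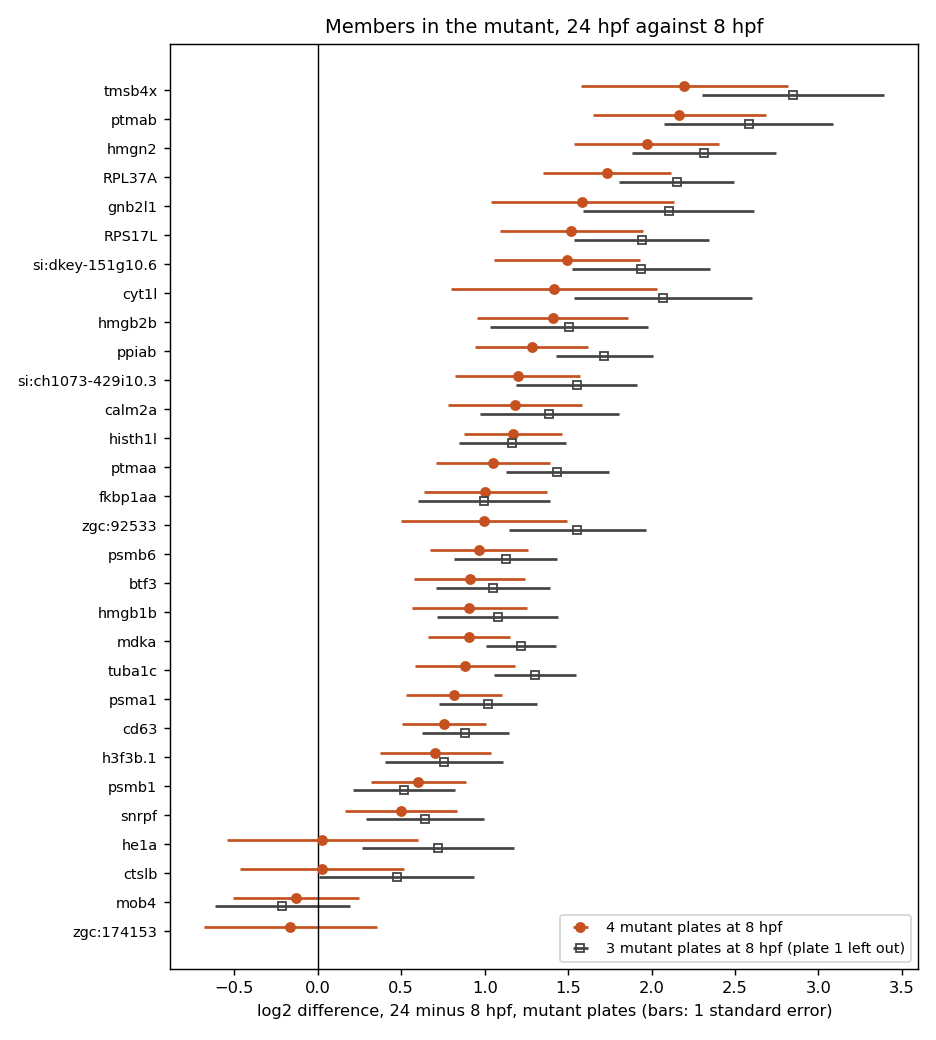
Log2 difference of 30 tested members between mutant plates of 24 and 8 hpf (horizontal axis; bars are 1 standard error), with all 4 plates of 8 hpf (filled circles) and without plate 1 (open squares). Most members lie right of 0 in both, and he1a, ctslb, mob4 and zgc:174153 lie near it when all plates are used.

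Among the 5 ribosome and translation members named above, 4 passed and btf3 did not (log2 0.91 ± 0.33, SE, limma adjusted p = 0.0529). si:dkey-151g10.6 had 11.5, 5.65 and 8.52 transcripts per cell on the mutant plates of 24 hpf, against 7.32, 2.36, 3.27 and 1 at 8 hpf. Its plates overlap through plate 1 of 8 hpf alone. RPL37A had 4.21, 3.63 and 2.63 transcripts at 24 hpf, against 2.40, 0.806, 0.577 and 0.5 at 8 hpf, with no overlap and a log2 difference of 1.73 ± 0.38 (limma adjusted p = 0.00308). gnb2l1 (3.31, 1.44 and 2.88 at 24 hpf, against 2.34, 0.917, 0.808 and 0 at 8 hpf) overlapped through plate 1.

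5 of the 7 chromatin members rose in the mutant. ptmab had 6, 5.26 and 2.45 transcripts per cell at 24 hpf, against 2.17, 1.06, 1.46 and 0 at 8 hpf, a log2 difference of 2.17 ± 0.52 (limma adjusted p = 0.00536). hmgn2, which loosens nucleosome packing, had 1.83, 1.41 and 0.8 against 0.574, 0.139, 0.192 and 0, a log2 difference of 1.97 ± 0.43 (limma adjusted p = 0.00297). All 3 plates of 24 hpf lay above all 4 of 8 hpf for both genes. hmgb2b, histh1l and ptmaa also rose, while h3f3b.1 (log2 0.71 ± 0.33) and hmgb1b (log2 0.91 ± 0.34) did not pass. Of the 24 tested genes of the chromatin and histone chaperone list that are not members, 2 were higher and 1, npm1a, was lower.

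tmsb4x had the largest difference, log2 2.20 ± 0.62 (limma adjusted p = 0.0155), with 10.6, 10.6 and 3.12 transcripts per cell at 24 hpf, against 5.98, 1.03, 1 and 0.5 at 8 hpf. The third 24 hpf plate lies below plate 1 of 8 hpf. The other cytoskeletal member, tuba1c, rose too. Of the 17 other tested genes of the actin and cortex list 3 were higher and 1 lower, and of the 7 other tubulin genes 3 were higher and none lower. mdka rose and had 0.333, 0.278 and 0.25 at 24 hpf, against 0.298, 0.0278, 0 and 0 at 8 hpf. Of the proteasome subunits psmb6 and psma1 rose and psmb1 did not pass (log2 0.60 ± 0.28), and none of the 16 other tested genes of the ubiquitin and proteasome list was called in either direction. ppiab passed and fkbp1aa did not (limma adjusted p = 0.0545). calm2a, cd63 and si:ch1073-429i10.3 also rose.

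The calls of both keratin genes depended on plate 1. cyt1l had 1.48, 1.39 and 0.0833 transcripts per cell in mutants of 24 hpf, against 1.13, 0.0556, 0 and 0 at 8 hpf, and did not pass (log2 1.42 ± 0.61, limma adjusted p = 0.117). Without plate 1 its difference was 2.07 ± 0.53 (limma adjusted p = 0.00481). zgc:92533 likewise passed only without plate 1, where its log2 difference was 1.55 ± 0.41 (limma adjusted p = 0.00481). Of the 15 other tested genes of the epidermis list, 4 were higher and none lower with all plates. btf3 and hmgb1b were the other members that passed without that plate but not with it.

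4 members had values near 0 in this comparison. mob4 had 0.143, 0.185 and 0.483 transcripts per cell in mutants at 24 hpf, against 0.213, 0.167, 0.346 and 0.5 at 8 hpf. Its wild-type plates of 24 hpf had 0.195, 0.6, 1.35, 0.314 and 0.605. he1a, ctslb and zgc:174153 were highest in the mutant on plate 1 of 8 hpf, at 1.17, 0.489 and 0.574, and were 0 on the other 3 plates of that stage. At 24 hpf he1a had 0.0952, 0.407 and 0 transcripts on the mutant plates. The log2 differences of these 4 genes ran from -0.16 to 0.03, and the sign for mob4, he1a and ctslb changed with the settings. Without plate 1 those of ctslb and he1a were 0.47 and 0.72.

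10 of 33 members were higher on every mutant plate of 24 hpf than on every one of 8 hpf, where 11.7% of all genes were, and 21 were when plate 1 of 8 hpf was left out, against 24.1% of all genes. The count of 19 depended on single plates. It was 3 without plate 1 of the 24 hpf mutants, where 43 of 901 genes were higher. Without plate 2 of the 8 hpf mutants it was 11, where 94 of 909 genes were higher. Without their plate 4, a plate of 2 cells, it was 10, where 84 of 907 genes were higher. With only the mutant plates of these 2 stages in the fit, 1 of 28 tested members was called, where 8 of 677 genes were higher. With the plate number as a block 14 members passed, where 124 of 910 genes were higher, and calm2a, cd63, gnb2l1, psma1 and ptmaa no longer did.

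Against 3.5 hpf the mutant difference was broader: 27 of 31 members were higher at 24 hpf and none was lower, where 28.8% of all genes were higher. The median log2 difference was 1.51 for the members and 0.13 for all genes. tmsb4x changed most, by log2 4.45 ± 0.59 (limma adjusted p = 1.33e-06), with 10.6, 10.6 and 3.12 transcripts per cell at 24 hpf, against 0.351, 0.194, 0.152, 0.0656 and 0 at 3.5 hpf. The members that did not pass were again mob4, he1a, ctslb and zgc:174153. On 25 members all 3 plates of 24 hpf lay above all 5 of 3.5 hpf, as did those of 29.9% of all genes. The 2 mutant comparisons share their 24 hpf plates. With plates scaled to equal totals 24 members were higher than at 3.5 hpf, where 184 of 910 genes were. Median transcripts per cell on the mutant plates of 3.5 hpf were 329, 320, 338, 367 and 346.5. On mutant plates of 3.5 hpf 4.05% to 16.4% of cells had a nanos3 transcript, against 11.1% to 66.7% at 24 hpf.

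**Figure D4:**
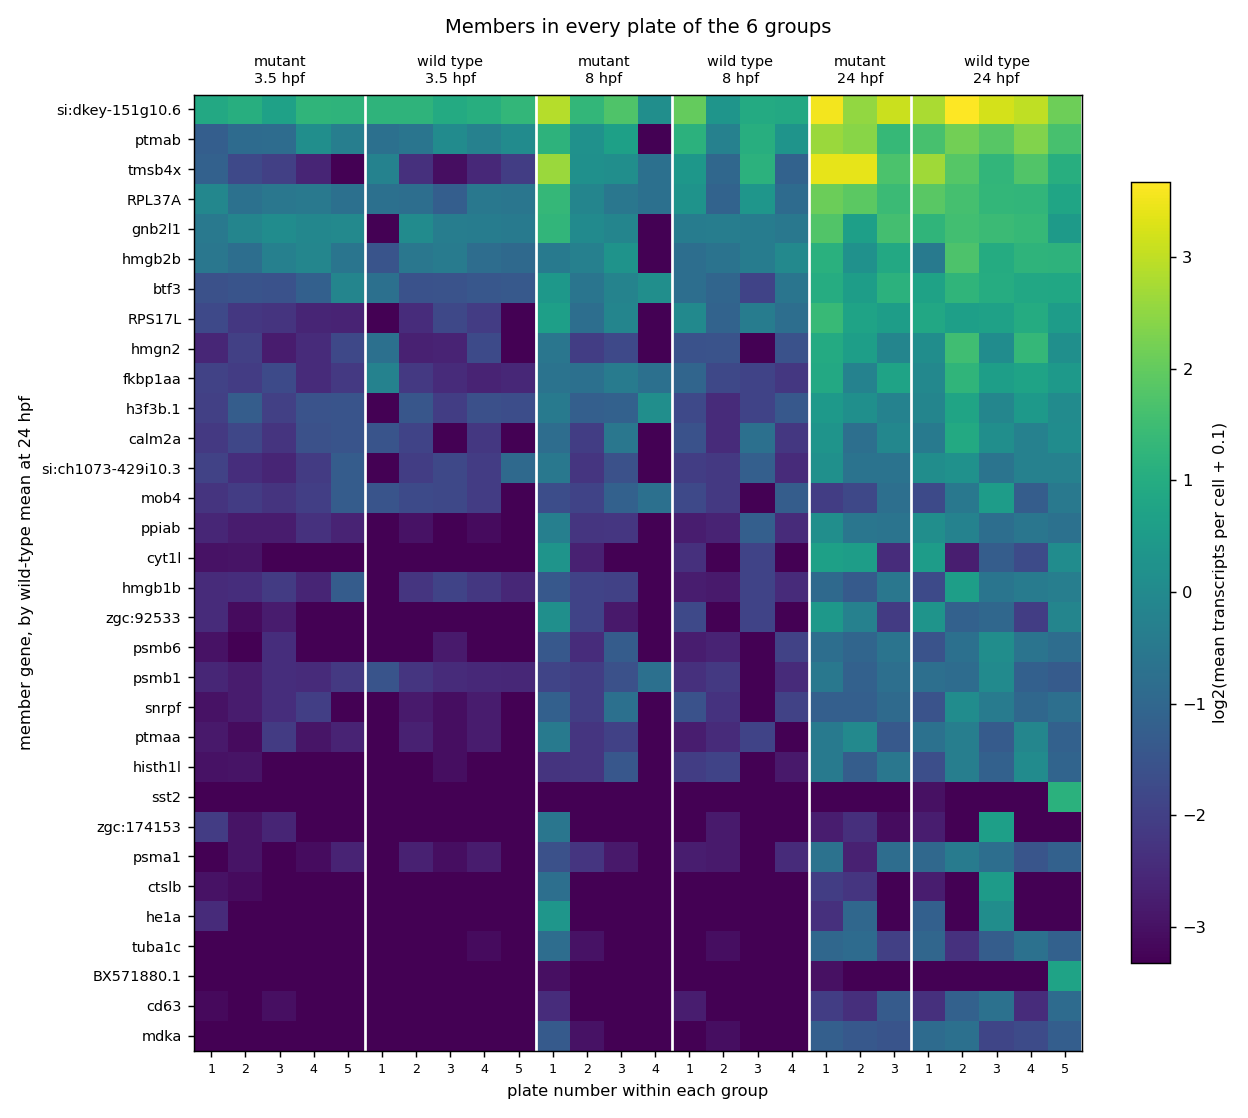
Level of 32 members (rows, by wild-type mean at 24 hpf) in each of 26 plates (columns), as log2 of mean transcripts per cell plus 0.1, with mutant plates left of wild-type plates at each stage. The 24 hpf columns are brighter for most rows, 8 hpf mutant plate 1 lies in the wild-type 24 hpf range for 21 members, and sst2 and BX571880.1 are bright on wild-type plate 5 alone.

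At 24 hpf no member differed between mutant and wild type by limma over 910 genes, of which 0.11% were called. No member had an unadjusted p under 0.05, where 21 of 910 genes did. By limma voom no member was called either, and 2 had an unadjusted p under 0.05, as did 56 of 910 genes. Wild-type plates of this stage chose the members, so high wild-type values were favoured. The median log2 difference, mutant minus wild type, was -0.07 for 31 members and 0.00 for all genes. tmsb4x was the farthest from 0, with 10.6, 10.6 and 3.12 transcripts per cell on mutant plates, against 6.32, 3.45, 2.33, 3.31 and 1.98 on wild-type plates (log2 1.09 ± 0.59, limma adjusted p = 1). These plates overlap. Summed germ markers were 1.38, 0.593 and 4.82 transcripts per cell on the same mutant plates, against 0.927, 8.40, 6.18, 2.49 and 5.95 on the wild-type plates, and their part in the level of tmsb4x was not tested. mob4 had the lowest difference at -0.70 ± 0.36. The standard errors of the members ran from 0.24 to 0.59. Differences of that size were not detectable on these plates, and larger ones could be missed too, as the uncalled 1.09 of tmsb4x shows.

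Within the plates of 24 hpf, cells with at least 1 nanos3 transcript were set against cells with none, each kind averaged per plate and the plate kept as a block. There were 58 positive and 98 negative mutant cells, and 106 positive and 90 negative wild-type cells, with at least 6 of each on every plate. Median transcripts per cell were 525.5 in positive and 580.5 in negative mutant cells, and 461.5 in positive and 578 in negative wild-type cells. In the wild type 3 members, ptmab, mdka and tmsb4x, were lower in nanos3-positive cells and none was higher by limma, where 1.13% of 797 genes were lower and 1.13% higher. Among the genes called higher were vasa, dnd and ca15b, whose deposited names start with germ. The rule left out such names, so these genes could not be members. Among the genes called lower, krt4 and fabp3, left out by name, and rpl4, left out by its start, could not be members either. The keratin gene krt8, not a member, was called lower too. The members were also chosen by means over these same wild-type cells, both kinds together. 9 members had an unadjusted p under 0.05, as did 20.3% of all genes, and of these 9 snrpf alone was higher. Limma voom called 5 members lower and none higher, against 0.627% of all genes lower and 1.51% higher. The median log2 difference, positive minus negative, was -0.25 over 31 members and -0.07 over all genes. 23 members had a negative difference and 8 a positive one. Without the 2 nanos3-negative cells that held most transcripts of 5 members, 22 were negative and 9 positive. The medians were then -0.23 over the members and -0.06 over all genes. With the sets of cells scaled to equal totals, the medians were -0.11 over the members and 0.03 over all genes. Then 19 members had a negative difference and 12 a positive one. By limma voom the medians were -0.25 and 0.07, again with 19 negative and 12 positive.

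ptmab averaged 1.57, 3.93, 3.26, 1.11 and 2.1 transcripts per nanos3-positive cell on the 5 wild-type plates, against 3.26, 5.67, 4.64, 6.35 and 5.15 per negative cell. It was lower on 5 of 5 plates, with a log2 difference of -1.1 ± 0.21 (limma adjusted p = 0.00284, range 5.64e-05 to 0.063 over the alternatives). mdka averaged 0.143, 0.143, 0.130, 0.111 and 0.133 in positive cells, against 0.5, 1.33, 0.364, 0.231 and 0.769 in negative cells. The means of positive and negative cells do not overlap within or between plates, although most cells of both kinds had no mdka transcript on 4 of 5 plates, and the difference was -1.19 ± 0.29 (limma adjusted p = 0.0183, range 0.0102 to 0.115). tmsb4x averaged 3.29, 3.50, 1.87, 2.44 and 1.70 in positive cells, against 6.94, 3.33, 4.27, 3.62 and 2.62 in negative cells. It was lower on 4 of 5 plates, by -0.64 ± 0.17 (limma adjusted p = 0.033, range 1.26e-05 to 0.413).

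These 3 calls did not all withstand single plates. Without wild-type plate 1 or without plate 5, only ptmab was called. mdka lost its call without plate 2, and tmsb4x lost its call without plate 3 and by limma voom. Without the trend and robust options ptmab and tmsb4x were not called, and without the plate block none of the 3 was. Scaled to equal totals, ptmab and mdka were called and tmsb4x was not (limma adjusted p = 0.119). With at least 2 nanos3 transcripts required for a positive cell, 9 members were lower and 1, snrpf, was higher, where 10.2% of 746 genes were lower and 4.69% higher. In the mixed plate's 24 hpf wells, 16 positive cells averaged 4.38 ptmab, 4.06 tmsb4x and 0.313 mdka transcripts, against 6.79, 6.96 and 0.5 in 24 negative cells. That plate entered neither the rule nor the test.

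Some marker lists of other cells moved with nanos3 status. Over the 5 wild-type plates the summed level of 8 epidermal markers, cyt1l among them, had a median of 2.14 transcripts per positive cell (0.286 to 3.33) and 6.29 per negative cell (2.04 to 8.85). That of 4 neural markers was 0.714 (0.333 to 1.29) in positive and 1.67 (1.36 to 2.31) in negative cells. The 4 notochord and cartilage markers had medians of 0.333 (0.0714 to 1.14) in positive and 0.833 (0.308 to 1.29) in negative cells. The 7 muscle markers had medians of 1.13 (0.444 to 3.14) in positive and 1.08 (0.167 to 5.88) in negative cells. The medians of the blood markers were 0 and 0.0385, and those of the macrophage and hatching gland markers 0 in both kinds of cell. Plate means of the hatching gland markers, the member he1a among them, ran from 0 to 0.286 in positive and from 0 to 7.64 in negative cells. The part of the epidermal, neural and notochord markers in the lower level of ptmab, mdka and tmsb4x was not tested. The 9 germ markers, nanos3 among them, summed to a median of 8.23 in positive and 0.545 in negative cells.

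No other member group was called for nanos3 status in the wild type. The 3 proteasome genes lay between 0.04 and 0.40 on the log2 scale, and the 5 ribosome and translation genes between -0.54 and -0.18. si:dkey-151g10.6 was lower in positive cells on 5 of 5 plates (4.43, 12.4, 8.70, 5.22 and 3.80 transcripts, against 7.21, 13, 11.7, 8.77 and 5.23 in negative cells), just short of the threshold (-0.47 ± 0.14, limma adjusted p = 0.0511). snrpf had the highest difference of any member, 0.73 ± 0.28 (limma adjusted p = 0.135). It averaged 0.286, 1.21, 0.717, 0.556 and 0.6 in positive cells, against 0.235, 0.333, 0.364, 0.346 and 0.231 in negative cells, higher on 5 of 5 plates. In the mutant snrpf was higher in positive cells on 1 of 3 plates (-0.21 ± 0.36, limma adjusted p = 0.908). The transcripts of sst2 and BX571880.1 on plate 5, and most of those of he1a, ctslb and zgc:174153 on plate 3, were in nanos3-negative cells.

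**Figure D5:**
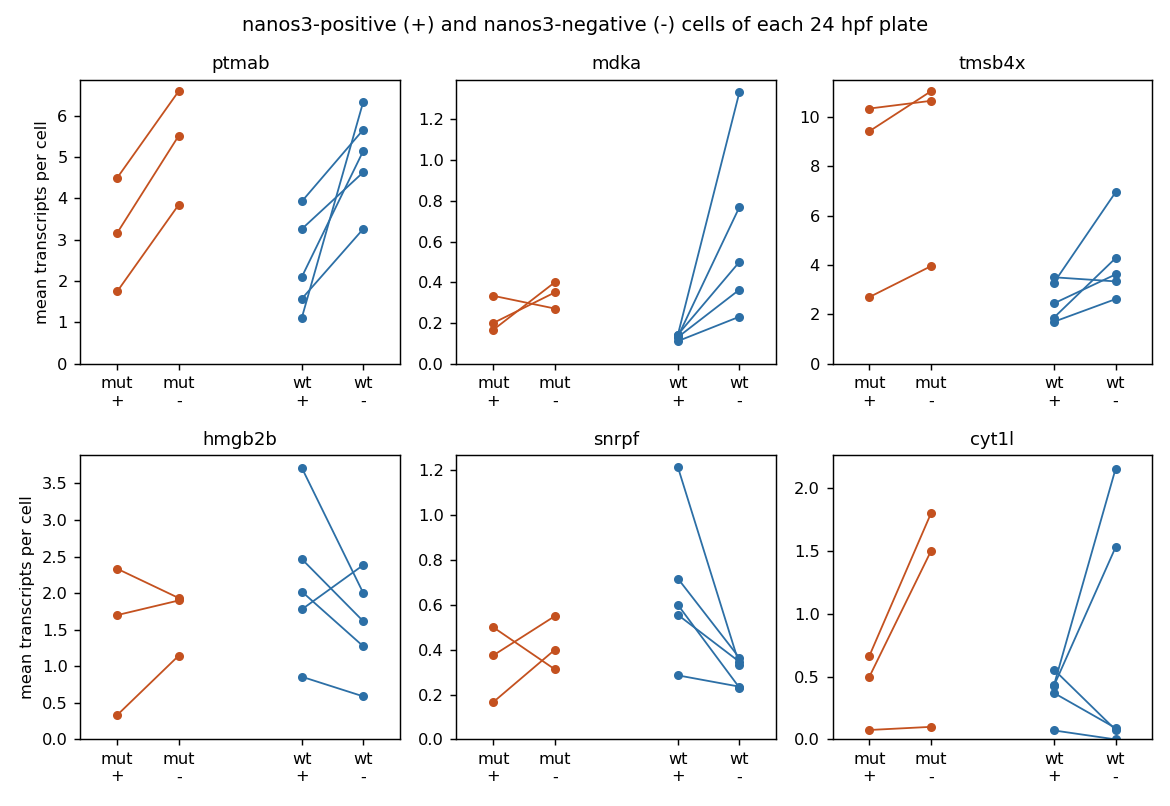
Mean transcripts per cell (vertical axes) of 6 members in nanos3-positive (+) and nanos3-negative (-) cells of each plate of 24 hpf, lines joining the values of 1 plate, mutant left and wild type right. ptmab is lower in positive cells on all 8 plates, mdka on all 5 wild-type plates, and cyt1l runs in both directions between plates.

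In the mutant no member was called for nanos3 status by limma, 0.125% of all genes being lower. 3 of 31 members had an unadjusted p under 0.05, as did 62 of 797 genes. By limma voom none was called either, and 3 members had an unadjusted p under 0.05, as did 93 of 797 genes. ptmab averaged 4.5, 3.17 and 1.75 transcripts in positive cells, against 6.60, 5.52 and 3.85 in negative cells, lower on 3 of 3 plates (-0.78 ± 0.26, limma adjusted p = 0.367). tmsb4x averaged 9.42, 10.3 and 2.70 in positive cells, against 11, 10.6 and 3.95 in negative cells, also lower on each. mdka averaged 0.167, 0.333 and 0.2 in positive cells, against 0.4, 0.271 and 0.35 in negative cells.

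The median difference over the members was -0.26, against -0.06 over all genes. The difference between the genotypes in the status effect was called for no member, while 0.125% of genes were. 2 members, hmgb2b (-0.81 ± 0.37, mutant minus wild type) and snrpf (-0.94 ± 0.46), had an unadjusted p under 0.05, as did 26 of 797 genes. By limma voom 4 members did, with none called, where 39 of 797 genes did. For mdka the mutant minus wild-type difference of the effects was 0.86 ± 0.47 (limma adjusted p = 0.986), and for ptmab 0.32 ± 0.34 (limma adjusted p = 0.986). A call in the wild type and none in the mutant therefore do not show that the genotypes differ.

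Cells that carried both keratin genes were counted at 24 hpf. In mutants, 20 of 53 cells with cyt1l also had zgc:92533, against 12 of 103 cells without cyt1l. In wild types 14 of 37 cells with cyt1l had it, against 20 of 159 without. The other pairs of members counted went the same way in both genotypes, so this is not particular to the keratin genes. In wild types 61 of 150 cells with ptmab had ptmaa, against 6 of 46 without ptmab. For psmb6 and psmb1 it was 33 of 75, against 48 of 121. These are counts of cells that share plates and depth, given with no test.

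At 2 weeks, on 1 plate of 76 cells with no replicate, 10 members were below the range of the wild-type plates of 24 hpf, 22 within it and 1, hmgb1b, above it (2.03 transcripts per cell, against at most 1.40). Of all genes 19.6% were below, 58% within and 22.4% above. ctslb, he1a and BX571880.1 were at 0 and count as within, because the lower end of their range is 0. The members were chosen for high wild-type levels at 24 hpf, which favours values below that range. ptmab stood at 0.408 transcripts per cell, against 2.98 to 5 at 24 hpf, and tmsb4x at 0.171, against 1.98 to 6.32. cyt1l and zgc:92533 were at 0.0132 and 0.0526. The other 6 below the range were fkbp1aa, si:ch1073-429i10.3, ptmaa, histh1l, tuba1c and mdka. All 5 ribosome and translation members lay within it. Only 1 of the 76 cells had a nanos3 transcript.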

How the data were processed

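The authors deposited 1 table of 1017 genes by 1203 cells. Reads were mapped with BWA to Zv9, per the submitters' processing notes. The deposited signal values are whole numbers plus 0.1 (tolerance 1e-06), so 0.1 was subtracted and the result is called transcripts. Whether they count reads or molecules, and any scaling, is not given in the sources used here. 1 cell whose barcode lies beyond the 96 listed for its plate was not used. Cells were averaged per plate, and plates are the replicates.

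Genes whose deposited mean reached 0.2 on 3 or more plates (for status, plate sets of 1 kind of cell) were tested on log2 of the deposited mean plus 0.1, which understates changes of low genes, with limma 3.58.1 in R 4.3.3 (trend and robust options), adjusted over all genes, threshold 0.05. All 26 plates of the 6 groups shared 1 fit, and the 16 sets of nanos3-positive or negative cells another. The steps were run on simulated cells that differed between plates in depth alone. That run therefore does not test how the p-values hold under the spread between real plates. Plate numbers may pair the mutant plates of 24 and 8 hpf: deviations of same-numbered plates from their group means correlated at 0.314, 0.138 and 0.219. The reported fit has no block for the number and called 19 members in that comparison, and the fit with the block called 14. The labels do not say what a number shares.

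30 of the 33 members matched a reference name in RefSeq or Ensembl. 1 member, counted in all totals, is not reported here by name. No cell was removed as a doublet, and no cell columns were identical. The members and gene lists were chosen with earlier results of these data known. Members named with values by rule are the 6 of highest wild-type level at 24 hpf, up to 6 of largest and smallest called status difference in the wild type, the 4 of largest and 4 of smallest mutant difference between 24 and 8 hpf, the 3 just inside and 3 genes just outside the fold limit, the 2 highest members of each list, and any called for genotype or for the difference of status effects; others were chosen after their values were seen. Alternatives covered the offset, filter, scaling, test, block, cell definition, plates left out and the rule's limits.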

Additional observations from a re-analysis of the deposited data

Results flagged for a closer look

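sst2 on wild-type plate 5 of 24 hpf, at 2.09 transcripts per cell, stood far from the other 4 plates, of which the next was at 0.0244. BX571880.1 on the same plate was at 1.56, the other plates being at 0. zgc:174153 and ctslb stood apart in the same way on plate 3, at 1.44 and 1.33, the next plate being at 0.0488 for both. 38 sets of plates were examined for a plate far from the others. Chance alone flags about 1 in 20 groups, but that rate does not apply to these 4, since wild-type plates of 24 hpf chose the members and the 4 values come from 2 cells.

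Wells outside the 6 groups also carried the members. Their share of transcripts was 6.94% in the heterozygous wells of 8 hpf mutant plate 1 and 3.76% in the 5 cells of 8 hpf on the mixed plate, whose genotype the labels give in both ways, against at most 3.04% on the wild-type plates of that stage.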

How the results depend on the processing

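Of the member counts, 105 of 120 alternatives stayed within 1.5 times the value reported, where 0 against a reported 0 was taken as within. The reported count was 0 for genotype, for mutant nanos3 status and for the difference of the status effects. The total of 105 therefore does not measure how stable the counts above 0 were. In the mutant, 24 against 8 hpf, limma voom called 7 members higher, where 68 of 910 genes were. With only these plates in the fit 1 member was called, where 8 of 677 genes were higher. With plates scaled to equal totals 10 members were called, where 83 of 910 genes were higher. Leaving out a plate gave 3 to 23 members, where 43 to 200 genes were higher. Against 3.5 hpf, leaving out a plate gave 23 to 27, where 209 to 249 genes were higher. For nanos3 status in the wild type 10 members were called with at least 2 nanos3 transcripts required, where 76 of 746 genes were lower and 35 higher. Limma voom called 5, where 5 of 797 genes were lower and 12 higher. With positive cells defined by nanos3, vasa or dnd 5 were called, where 37 of 780 genes were lower and 26 higher. Without the trend and robust options 1 was called, where 2 of 797 genes were lower and 8 higher. With no replicate block for the plate 0 were called, where 1 gene was lower and 6 higher. A plate left out gave 1 to 3, where 3 to 8 genes were lower. In the mutant, defining positive cells by nanos3, vasa or dnd gave 1 call, where 3 of 780 genes were lower and 1 higher, and leaving out a plate 0. Genotype at 24 hpf and the difference of the status effects gave 0 under every alternative run, plates left out and the replicate block included. For genotype, same-numbered mutant and wild-type plates correlated at -0.08, -0.41 and 0.32, and for the mutant 24 against 3.5 hpf at -0.02, 0.01 and 0.05. In that stage comparison the block gave 25 member calls, where 235 of 910 genes were higher. A fold of 2 gave 51 members, and leaving out a wild-type plate 26 to 41, an alternative added after seeing the data, as were those without single cells. Limma voom moved the median of all genes to -0.42 (24 against 8 hpf) and -0.39 (24 against 3.5 hpf) in the mutant, against 0.12 and 0.13 as reported, and that of the members to 0.93 and 2.26.

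Of 994 alternative values of single members, 147 lost their call, 1 gained one and 29 changed sign; the cause was not tested. In the mutant, 24 against 8 hpf, ctslb was at -0.0288 with an offset of 0.5 and of 1, at -0.016 with equal totals, -0.33 with plates weighted by cells, -1.004 by limma voom, -0.063 with the replicate block, -0.12 without plates of fewer than 10 cells and -0.13 to 0.47 with a plate left out. he1a was at -0.065, -0.071, -0.019, -0.47, -1.03, -0.093, -0.20 and -0.41 to 0.72 in the same order. mob4 was at 0.12 with plates weighted by cells, 0.042 without plates of fewer than 10 cells, 0.0034 also without plate 1, and -0.43 to 0.065 with a plate left out. cd63 in wild-type nanos3 status was at -0.044 with at least 10 cells of each kind. Plates of 2 to 6 cells, and members seen in few cells, limit the precision.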
